A study of Homo sapiens with 18 samples.

Results

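The 10 genes described here encode chains of cytokine receptors: IL7R, CSF2RB, CSF2RA, IL2RG, IL4R, IL6R, IL6ST, OSMR, LIFR and IL1R1. They were chosen by name from the 58051 genes of the deposited tables, with their levels in resistant and parental cells already known, and the choice rests on IL7R being gained in both resistant populations and CSF2RB in resistant #2. Differences between resistant and parental cells are therefore given for these genes as a description, without a test. RNA was sequenced from NCI-H460, an established human large-cell lung cancer line with an epithelial, adherent growth form. The 3 populations were the parental line and the populations called resistant #1 and resistant #2, each labelled wild type. Each was given either DMSO (0.7% by volume) or 2 µM all-trans retinoic acid (ATRA) together with 50 µM decitabine, and each of the 6 groups has 3 biological replicates, 18 libraries in all. The agents were added 24 h after plating and RNA was taken at 72 h, so exposure lasted 48 h. ATRA activates retinoic acid receptors, and decitabine is a nucleoside drug that depletes DNA methyltransferases and lowers DNA methylation. How the resistant populations were derived, and whether either is a clone, is not given in the sources used here, so a difference between populations describes these 2 populations. Labels name separate biological replicates of each population but no separate derivations, so p-values measure the spread between those replicates.

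Cytokine receptors of this kind have no kinase of their own. Binding of a ligand brings receptor chains together, JAK kinases bound to their tails phosphorylate them, and STAT transcription factors are recruited and activated, while SOCS proteins and phosphatases end the signal. Chains are shared: IL2RG, the common gamma chain, pairs with IL7R for interleukin 7 and with IL4R for interleukin 4. CSF2RB, the common beta chain, pairs with CSF2RA for GM-CSF. IL6ST (gp130) pairs with IL6R for interleukin 6, with LIFR for LIF and with OSMR for oncostatin M. IL1R1 belongs to another family, which signals through MYD88 and IRAK kinases. IL7R, IL2RG and CSF2RB are best known from blood cells, whereas gp130, OSMR and LIFR are widely made by epithelial and stromal cells.

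Values below are the authors' normalised read counts, scaled within a table for library depth, unless another scale is named. The DMSO and the treated tables were normalised apart, so normalised counts are compared within a table, and changes under treatment are measured in CPM, the reads of a gene scaled to a common library size over both tables. Tests are limma's moderated test on log2 values with Benjamini-Hochberg adjustment over all genes tested, and a gene passed where the adjusted p was under 0.05. A log2 difference carries its standard error (SE) after the ± sign. The DMSO libraries hold 117 to 141 M reads, and the treated libraries 116 to 180.5 M reads over the genes that could be read. In the table of treated libraries the decimal points had been lost, and they were put back from the whole reads each value must represent, for 80.3% of the 25110 genes above the filter at a posterior of at least 99%. Of the 10 receptor genes, 7 reached it. IL7R (96.4%), CSF2RB (93.5%) and IL1R1 (84.3%) did not, and stayed out of the main tests with treated libraries. They are given at the most probable reading with the alternative beside it. The p-values printed for IL1R1 responses come from added fits at each reading, chosen after seeing the data. Markers were checked against the label. The 7 epithelial markers summed to 135855 or more in every DMSO library, most of it keratins, although CDH1 averaged 1.38, 0.915 and 1.07 in parental, resistant #1 and resistant #2 cells. Of 14 blood markers, MPO and NKG7 had no read in any DMSO library, and the summed blood markers ranged over 225 to 446 in parental, 634 to 714 in resistant #1 and 2087 to 2469.9 in resistant #2. Most of the sum in resistant #2 came from CD33, at 2156 ± 213, a marker of myeloid cells. Other myeloid markers were mixed. CD14 averaged 312, 96.4 and 37.3 in parental, resistant #1 and resistant #2 cells, and CSF1R 23, 42.9 and 1.74. ITGAM and SPI1, both low, were also lowest in resistant #2, while LYZ was highest there, at 7.65, 21.1 and 105 in the same order. PTPRC, a blood marker with few reads, was likewise highest in resistant #2, at 0.361, 1.85 and 15.9 in that order. The summed markers of endothelium, 5 genes, ranged over 66.1 to 90.9, 327 to 429 and 142 to 267 in the same order, and those of fibroblasts, 7 genes, over 8082 to 10046, 483 to 549 and 3483 to 4481. The part of these markers in the results was not tested. In bulk RNA, fewer cells making a transcript and less transcript per cell cannot be told apart.

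Because decitabine lowers methylation at CG dinucleotides, the 300 bases around the RefSeq starts of 3 genes on which the results turn are printed here (GRCh38.p14, read along the gene, CG in capitals). They are IL7R on the plus strand of chr5:35856641-35856940, IL2RG on the minus strand of chrX:71111528-71111827 and IL4R on the plus strand of chr16:27313724-27314023.
IL7R: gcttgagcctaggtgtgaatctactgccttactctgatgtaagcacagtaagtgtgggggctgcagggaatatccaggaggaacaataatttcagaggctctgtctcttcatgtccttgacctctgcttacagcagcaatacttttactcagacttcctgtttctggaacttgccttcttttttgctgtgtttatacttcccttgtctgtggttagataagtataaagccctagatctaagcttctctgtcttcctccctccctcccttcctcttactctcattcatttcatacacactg
IL2RG: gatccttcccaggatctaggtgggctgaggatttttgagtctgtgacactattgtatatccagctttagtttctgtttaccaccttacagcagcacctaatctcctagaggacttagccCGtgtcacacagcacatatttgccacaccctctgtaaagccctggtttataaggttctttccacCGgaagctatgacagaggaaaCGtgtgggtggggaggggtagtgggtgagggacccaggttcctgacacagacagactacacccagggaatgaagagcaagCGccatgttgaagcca
IL4R: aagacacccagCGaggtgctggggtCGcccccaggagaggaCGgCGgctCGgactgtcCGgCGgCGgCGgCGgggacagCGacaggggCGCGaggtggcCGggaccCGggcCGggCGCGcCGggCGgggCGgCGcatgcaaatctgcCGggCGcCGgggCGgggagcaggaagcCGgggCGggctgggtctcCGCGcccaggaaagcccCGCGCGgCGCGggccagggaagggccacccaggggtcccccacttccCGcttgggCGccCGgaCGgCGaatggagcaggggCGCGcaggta
The IL7R window holds no CG, as few as any of the 35116 RefSeq starts of this length, of which 3.96% hold none. The IL2RG window holds 4 CG (29.6% of starts hold this many or fewer) and the IL4R window 42 (95.02%). The windows of CSF2RA, OSMR, IL6R and IL6ST hold 6, 23, 27 and 36, and the median over all starts is 14. LIFR has 3 listed starts with 2, 9 and 51 CG, and IL1R1 has 4 with 4, 7, 8 and 40. CSF2RB is named only. The letters TTCNNNGAA, the core of a STAT site, which reads the same on both strands, are in none of the 3 printed windows and in 7.66% of all windows. The AP-1 letters TGANTCA, likewise the same on both strands and sharing no overlap with the STAT letters here, are in none of the 3 and in 7.71% of all. Among the windows not printed, the STAT letters occur at starts of LIFR and IL1R1, and the AP-1 letters in those of IL6R and OSMR.

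IL7R, the interleukin 7 receptor alpha chain (ENSG00000168685, chromosome 5, 35852695 to 35879603 on the plus strand, GRCh38), was all but silent in parental cells and strongly made in both resistant populations. In DMSO the parental libraries had 0.985, 0 and 0 normalised counts, which is 1 read in all. Resistant #1 had 7322, 7220.4 and 8746, and resistant #2 had 1975, 1138 and 1867. No resistant library came near a parental one. The ratio of means was 23653 for resistant #1 over parental (95% exact Poisson interval on the single parental read, 4245 to 934235, counting error only) and 5058 for resistant #2 (908 to 199776). Resistant #1 exceeded resistant #2 4.68-fold in DMSO (log2 difference 2.26 ± 0.29 SE, limma adjusted p = 6.12e-05). Under ATRA and decitabine, parental cells stayed near zero at 0.868, 4.41 and 0.779, 7 reads in all, resistant #1 had 3905, 3537 and 5219, and resistant #2 had 1130 (or 112.98, the second reading of that library, which has a posterior of 3.46%), 508 and 601. The treated resistant libraries lay below the DMSO ones of the same population without overlap. On the log2(CPM + 1) scale the response was -1.21 ± 0.22 in resistant #1 and -1.37 ± 0.22 for resistant #2, and with the second reading it was -2.13 in resistant #2. IL7R was chosen for its high DMSO values in these populations, so its responses are given with no test. So IL7R fell under treatment where it was made, and treatment did not bring parental cells to resistant levels: treated resistant #1 still stood 2089-fold over treated parental cells (exact Poisson interval 1014 to 5196).

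IL2RG, the common gamma chain (ENSG00000147168, chromosome X, 71107404 to 71112108 on the minus strand), behaved differently: treatment raised it most where it had been lowest. Parental DMSO libraries had 2.95, 2.87 and 3.25 normalised counts, resistant #1 had 72.1, 88.2 and 195, and resistant #2 had 33.9, 30.9 and 49.9. Every resistant library was above every parental one, 39.2-fold and 12.6-fold by the means. Under ATRA and decitabine, parental cells had 232, 341 and 325, resistant #1 had 117, 150.4 and 189.8, and resistant #2 had 134, 88.6 and 89.2. Treated parental libraries were thus above all treated resistant libraries, whereas parental libraries were lowest in DMSO. In CPM, parental cells rose 84.6-fold, with a log2(CPM + 1) response of 1.63 ± 0.15 (adjusted p = 8.17e-08). This scale compresses a gene that starts near 0, and with a pseudocount of 0.01 CPM the response was 5.92. In resistant #1 the treated and DMSO libraries overlapped and the response was 0.039 ± 0.15 (adjusted p = 0.899). In resistant #2 they did not overlap; the response of 0.34 ± 0.15 missed the threshold (adjusted p = 0.138), but passed it with edgeR (adjusted p = 0.0386), with DESeq2 (0.0156), with the replicate number as a block within population (0.0205), with the smaller pseudocount (0.0245) and without resistant #1 DMSO replicate 3 (0.0284). The response in either resistant population was smaller than in parental cells (-1.59 ± 0.21, adjusted p = 1.66e-05, and -1.28 ± 0.21, adjusted p = 0.000111).

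IL4R, the interleukin 4 receptor alpha chain (ENSG00000077238, chromosome 16, 27313668 to 27364778 on the plus strand), is made in all groups, and its order in DMSO was parental, resistant #1, resistant #2. The parental DMSO libraries had 909, 951 and 724, resistant #1 had 1428, 1328 and 1609.9, and resistant #2 had 4624, 2732 and 2741, with no overlap between populations. Treated parental cells had 2526, 2419 and 2489.7, treated resistant #1 cells 2023, 1981 and 2211 and treated resistant #2 cells 6611, 3323 and 3201. Replicate 1 of resistant #2 was the highest library in both treatments, and without it the difference of treated resistant #2 from treated parental cells went from a log2 difference of 0.74 to 0.40. Parental cells rose by 1.20 ± 0.22 on the log2(CPM + 1) scale (adjusted p = 0.000186), a ratio of 2.45, past the level of untreated and treated resistant #1. The response was 0.16 ± 0.22 in resistant #1 (adjusted p = 0.675) and -0.015 ± 0.22 for resistant #2 (adjusted p = 0.994). Both were smaller than the parental response (-1.04, adjusted p = 0.0138, and -1.21, adjusted p = 0.00452). The first of these lost its call with a pseudocount of 10 (adjusted p = 0.0615), without parental DMSO replicate 3 (0.0548) or without resistant #1 DMSO replicate 3 (0.0517).

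The ligands and kinases that go with these chains did not all move with them. IL7, the ligand of IL7R, was low throughout, at 38.3 ± 1.81 in parental DMSO cells (SD, n = 3), 100.6 ± 19 in resistant #1 (log2 difference 1.36 ± 0.25, adjusted p = 0.000776) and 52.5 ± 13.3 for resistant #2 (log2 difference 0.41 ± 0.25, adjusted p = 0.173). Without resistant #2 DMSO replicate 2 the last difference was 0.64 and passed (0.0475). TSLP, which signals through IL7R and CRLF2, was higher in resistant #1 (647 ± 115 against 298 ± 102, adjusted p = 0.0176, and 0.0508 to 0.0777 without any 1 of parental DMSO replicates 1 and 2 or resistant #1 DMSO replicates 1 and 2). TSLP had 402 ± 197 in resistant #2 (log2 difference 0.35 ± 0.36, adjusted p = 0.418), and without resistant #2 DMSO replicate 3 the difference was 0.78 and passed (0.0344). CRLF2 itself was higher in resistant #1 (232 ± 17.1 against 81.4 ± 21.8, adjusted p = 0.000365) and not shown to differ in resistant #2 (87.1 ± 24.5, adjusted p = 0.782). JAK3, the kinase bound by IL2RG, had 342, 396 and 353 in parental DMSO libraries, 1814, 1766 and 1544 in resistant #1 and 950.04, 462 and 315 in resistant #2. It rose by 2.23 ± 0.31 in resistant #1 (adjusted p = 9.89e-05). In resistant #2 the difference was 0.51 ± 0.31 (adjusted p = 0.174), past the threshold with DESeq2 (0.0486) and without resistant #2 DMSO replicate 3 (0.0107). JAK1, the kinase of IL7R and gp130, rose in both (0.85 ± 0.10, adjusted p = 3.4e-05, and 1.04 ± 0.10, adjusted p = 5.17e-06). STAT5A, a main effector of interleukin 7, likewise rose in both (1.45 ± 0.26, adjusted p = 0.000603, and 1.67 ± 0.26, adjusted p = 0.000168), and under treatment it rose in parental cells by 1.32 ± 0.23 (adjusted p = 9.68e-05), to 958 ± 41.5. CISH, a feedback gene induced by STAT5, fell in both, from 119 ± 23.2 to 42.4 ± 3.76 (adjusted p = 0.000144) and 80.2 ± 9.91 (adjusted p = 0.0398). In resistant #2 that call was lost with no filter (0.0712), with the replicate number as a block (0.0604), with the compared groups fitted alone (0.0716) and on leaving out 7 of the 9 libraries in turn (0.0509 to 0.154), parental DMSO replicate 3 and resistant #2 DMSO replicate 2 being the exceptions.

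**Figure D1:**
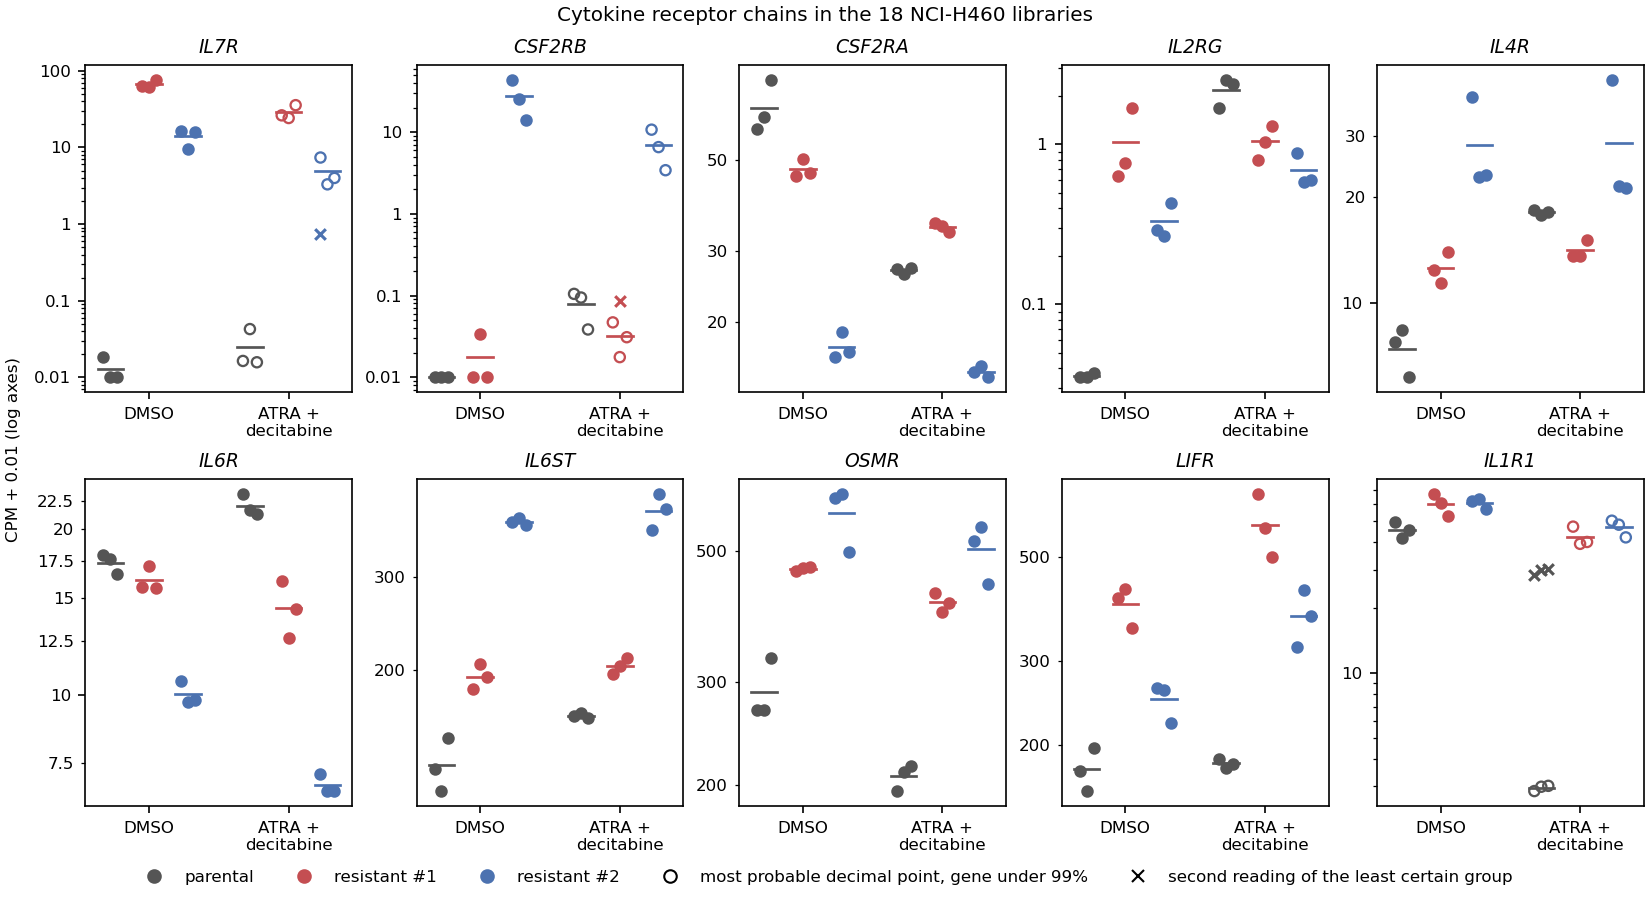
CPM + 0.01 of each receptor gene in every library on log axes, by treatment (parental grey, resistant #1 red, resistant #2 blue; points are libraries, lines group means). Open circles are the most probable readings of IL7R, CSF2RB and IL1R1 in treated libraries and crosses the second reading of the least certain group; IL2RG in parental cells moves from the lowest to the highest group.

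CSF2RB, the common beta chain shared by the GM-CSF, interleukin 3 and interleukin 5 receptors (ENSG00000100368, chromosome 22, 36913628 to 36940449 on the plus strand), was read among the DMSO groups in resistant #2, and elsewhere with 3 reads in 1 resistant #1 library. The parental libraries had no read, resistant #1 had 0, 2.73 and 0 normalised counts, and resistant #2 had 5188, 3019.98 and 1679.8. The resistant #2 libraries differed among themselves more than 3-fold, and the mean was at least 1089.7-fold higher than a parental floor of 3 reads per library. Under ATRA and decitabine, parental libraries had 13.02, 11.5 and 3.89 (or 38.9), resistant #1 had 5.50, 1.11 (or 11.1) and 3.06, and resistant #2 had 1640.2, 1011 and 514 (or 5138), the alternatives having posteriors of 1.44%, 2.60% and 2.32%. In CPM, each treated resistant #2 library at its most probable reading lay below every DMSO library of resistant #2. The response there was -1.83 ± 0.31 on the log2(CPM + 1) scale, and -0.84 ± 0.40 with 5138 in the third library. CSF2RB was chosen for its high DMSO values in resistant #2, so these responses are given with no test. At their most probable readings all 3 treated parental libraries held reads, 33 in all, where the DMSO ones had none.

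CSF2RA, the chain that binds GM-CSF (ENSG00000198223, chromosome X, 1268800 to 1310381 on the plus strand, in the region shared with the Y chromosome), went the other way from its partner. It had 7033, 7264 and 9306 normalised counts in parental DMSO libraries, 5282, 5862 and 5379 in resistant #1 and 1972, 2258 and 2001 in resistant #2. The populations did not overlap, and resistant #2, the population with CSF2RB, was lowest at 3.79-fold below parental. Treated libraries had 3713, 3565 and 3727 for parental cells, 5222, 5022 and 4864 for resistant #1 and 2315, 2407 and 2209 for resistant #2. The order had changed, with resistant #1 now above parental cells. On the log2(CPM + 1) scale parental cells fell by 1.29 ± 0.085 (adjusted p = 1.13e-09) and resistant #1 by 0.46 ± 0.085 (adjusted p = 0.000685), while the response in resistant #2 was -0.19 ± 0.085 (adjusted p = 0.143). The parental fall was the larger by 0.83 ± 0.12 against resistant #1 (adjusted p = 3.55e-05) and 1.09 ± 0.12 against resistant #2 (adjusted p = 1.37e-06). CSF2, the gene of GM-CSF, had no read in parental DMSO libraries, 1.74, 4.55 and 7.73 in resistant #1 and 37, 13.9 and 13 in resistant #2. It passed the filter on low values through resistant #2 alone, the population where it is high, so these are values with no test.

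IL6ST, or gp130, the signalling chain of the interleukin 6 family (ENSG00000134352, chromosome 5, 55935095 to 55994993 on the minus strand), was higher in resistant #1 than in parental cells and highest in resistant #2. DMSO libraries had 15326, 13473 and 17634 for parental cells, 21243, 23941 and 22458 for resistant #1 and 45636, 46198 and 44616 for resistant #2. The populations did not overlap, and resistant #2 stood 2.94-fold over parental. Treated parental libraries had 22487, 22564 and 22194, treated resistant #1 libraries 29260.2, 29699.6 and 30848, and treated resistant #2 libraries 56463, 66501 and 60687, again without overlap. Parental cells rose by 0.31 ± 0.076 under treatment (adjusted p = 0.00164), and the responses of resistant #1 and resistant #2 were 0.067 ± 0.076 (adjusted p = 0.577) and 0.067 ± 0.076 (adjusted p = 0.652). The differences from the parental response missed the threshold (-0.25, adjusted p = 0.0727, and -0.25, adjusted p = 0.0671). Both passed with a filter at 50 (0.0298 and 0.0239), with the replicate number as a block within population (0.0391 and 0.0366) and without parental DMSO replicate 3 (0.0199 and 0.0249).

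OSMR, the specific chain of the oncostatin M receptor (ENSG00000145623, chromosome 5, 38845858 to 38945596 on the plus strand), had the same order of populations as gp130. DMSO libraries had 31640.5, 30700.5 and 38925 for parental cells, 53440.4, 54607 and 54383 for resistant #1 and 73660.4, 74687 and 59092 for resistant #2. Every resistant library exceeded every parental one, by 1.6-fold and 2.05-fold in the means. RICTOR overlaps OSMR on the other strand with up to 10635 normalised counts, and LIFR-AS1 overlaps LIFR with up to 317. The strand setting of the counting is not given in the sources used here, so reads of these pairs may not be told apart. Treated libraries had 26855, 28596 and 29547 for parental cells, 63272, 57560.4 and 59878 for resistant #1 and 79729, 84943 and 66383 for resistant #2. Parental cells fell by 0.47 ± 0.10 on the log2(CPM + 1) scale (adjusted p = 0.000568). The responses of resistant #1 (-0.19 ± 0.10, adjusted p = 0.177) and resistant #2 (-0.20 ± 0.10, adjusted p = 0.193) missed the threshold but passed with the replicate number as a block within population (0.0107 and 0.0101), and that of resistant #1 also with the compared groups alone (0.0496). The differences from the parental response, 0.28 ± 0.14 (adjusted p = 0.122) and 0.27 ± 0.14 (adjusted p = 0.128), likewise passed with that block (0.00581 and 0.00672). That of resistant #1 also passed with the compared groups alone (0.0171) and without resistant #2 DMSO replicate 3 (0.0353), and that of resistant #2 without any 1 of 4 libraries (0.0364 to 0.0454), namely parental DMSO replicate 1, resistant #2 DMSO replicates 1 and 2 and treated resistant #2 replicate 3.

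LIFR, the LIF receptor chain (ENSG00000113594, chromosome 5, 38474963 to 38608354 on the minus strand), peaked in resistant #1. DMSO libraries had 20762, 18204 and 23266 for parental cells, 47335, 49724 and 40804 for resistant #1 and 31617, 31206 and 26369 for resistant #2. Treated parental libraries had 25656, 24282 and 24897, treated resistant #1 libraries 100969, 83743 and 73209.7, and treated resistant #2 libraries 49195, 65718 and 56428. No 2 populations overlapped in either treatment. Treatment raised LIFR by 0.55 ± 0.12 in resistant #1 (adjusted p = 0.0026) and by 0.58 ± 0.12 for resistant #2 (adjusted p = 0.00271) on the log2(CPM + 1) scale, against 0.046 ± 0.12 in parental cells (adjusted p = 0.763). Of the 7 genes tested it was the 1 that rose in both resistant populations. The rise exceeded the parental response by 0.51 ± 0.17 in resistant #1 (adjusted p = 0.0235, and 0.0706 without treated resistant #1 replicate 1) and by 0.53 ± 0.17 for resistant #2 (adjusted p = 0.0161).

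IL6R, the chain that binds interleukin 6 (ENSG00000160712, chromosome 1, 154405193 to 154469450 on the plus strand), was lowest in resistant #2. DMSO libraries had 2119.9, 2012 and 1961 for parental cells, 1811, 1998 and 1807 for resistant #1 and 1267, 1154 and 1159 for resistant #2. Parental cells and resistant #1 overlapped, and resistant #2 lay below both. Treated libraries had 3187, 2951 and 2916 for parental cells, 2393, 1852 and 2091 for resistant #1 and 1094, 1028 and 1003 for resistant #2, with no overlap. The response differed in direction: parental cells rose by 0.33 ± 0.084 (adjusted p = 0.00258) and resistant #2 fell by 0.49 ± 0.084 (adjusted p = 0.000547). Resistant #1 gave -0.16 ± 0.084 (adjusted p = 0.164), which passed without treated resistant #1 replicate 1 (0.0482). The differences from the parental response were -0.49 ± 0.12 (adjusted p = 0.00291) and -0.82 ± 0.12 (adjusted p = 2.59e-05).

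Among the ligands of the gp130 family, OSM was low in DMSO in the populations where OSMR was high. It had 199, 435 and 242 normalised counts in parental DMSO libraries, 6.94, 1.82 and 4.83 in resistant #1 and 8.22, 3.2 and 7.6 in resistant #2. In DMSO, OSM passed the filter on low values through the parental libraries alone, where it is high, so no test is given. Under treatment OSM had at least 10 normalised counts in all 3 libraries of each population. IL6 had 3307, 7848 and 8496 for parental cells, 18759.7, 26694 and 29410.2 for resistant #1 and 22608, 13443 and 8449.8 for resistant #2. It was higher in resistant #1 (adjusted p = 0.00106) and likewise in resistant #2 (adjusted p = 0.0209), the latter not with the compared groups alone (0.0645), without parental DMSO replicate 1 (0.0881) or without resistant #2 DMSO replicate 1 (0.0882). In treated parental cells IL6 fell (-1.27 ± 0.37, adjusted p = 0.0065). LIF was lower in resistant #1 (13500.3 ± 755 against 29680 ± 7998, adjusted p = 0.000242) and not shown to differ in resistant #2 (28001 ± 3774, adjusted p = 0.797). STAT3, the main effector of gp130, rose in resistant #1 (1.21 ± 0.095, adjusted p = 1.26e-06), in resistant #2 (0.83 ± 0.095, adjusted p = 1.66e-05) and in treated parental cells (1.32 ± 0.084, adjusted p = 7.62e-10). SOCS3, a feedback inhibitor of gp130, fell in both (-1.26 ± 0.13, adjusted p = 1.21e-05, and -0.91 ± 0.13, adjusted p = 0.000113). Among treated libraries it was instead higher in both than in parental cells (0.31, adjusted p = 0.00801, and 0.43, adjusted p = 0.000881).

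IL1R1, the signalling receptor of interleukin 1 (ENSG00000115594, chromosome 2, 102064544 to 102179874 on the plus strand), varied least of the 10 between DMSO populations. The libraries had 5870.2, 4769 and 5379.6 for parental cells, 7737, 7130.4 and 6099.7 for resistant #1 and 7462, 7552 and 6721 for resistant #2. The resistant populations overlapped each other and lay above parental cells, by 1.31-fold and 1.36-fold. Treated resistant #1 had 7039.7, 5755 and 5884 and treated resistant #2 7716, 7454 and 6359.9. Treated parental cells had either 391, 404 and 412 (posterior 84.3%) or 3905, 4044 and 4118 (15.7%). IL1R1 fell under treatment in resistant #1 (-0.50 ± 0.10, adjusted p = 0.0011) and likewise in resistant #2 (-0.37 ± 0.10, adjusted p = 0.0137). In parental cells it fell by 3.56 (adjusted p = 1.94e-14) or, at the second reading, by 0.61 (adjusted p = 3.19e-05). Whether the parental fall was the larger depends on that reading: the difference of resistant #1 from it was 3.06 (adjusted p = 4.53e-11) or 0.11 (adjusted p = 0.535), and that of resistant #2 3.19 (adjusted p = 2.05e-11) or 0.25 (adjusted p = 0.149). Its ligand gene IL1B had 117, 121 and 152 in parental DMSO libraries, 695, 716 and 1158 in resistant #1 and 4049.7, 2259 and 2108 in resistant #2, higher in both (adjusted p = 7.53e-06 and 1.14e-07). IL1A was higher in resistant #2 (16973, 8106 and 5628 against 807, 1587 and 2056, adjusted p = 9.96e-05), with 1541, 2085 and 1899.6 in resistant #1 (adjusted p = 0.407). IL1RAP, the partner chain of IL1R1, was higher in resistant #2 (8920.5 ± 1311 against 4291 ± 922, adjusted p = 0.00014) and had 3438 ± 391 in resistant #1 (adjusted p = 0.129).

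To compare levels between chains, CPM was divided by exonic length. In parental DMSO cells OSMR led with 40.3 ± 4.83 CPM per kb (SD, n = 3), followed by CSF2RA (17.6 ± 2.61), LIFR (15 ± 1.56) and IL6ST (14.2 ± 1.68), which overlapped as neighbours in that order. IL1R1 (6.45 ± 0.567), IL6R (2.7 ± 0.115) and IL4R (1.25 ± 0.194) came next without overlap, and IL2RG was at 0.00938 ± 0.000484. In resistant #1 the order was OSMR, LIFR, IL6ST, then CSF2RA (12.4 ± 0.627) and IL7R (11.1 ± 1.25), the last pair overlapping. IL7R thus did not differ from CSF2RA there beyond their spread, while its partner IL2RG was at 0.371 ± 0.21. In resistant #2, OSMR (80.8 ± 9.81), IL6ST (41.1 ± 0.565) and LIFR (21 ± 1.95) led without overlap. IL1R1, CSF2RB (5.52 ± 2.94), IL4R and CSF2RA (4.55 ± 0.342) followed, each overlapping the next, so the 2 chains of the GM-CSF receptor did not differ there beyond their spread. IL7R in resistant #2 was at 2.3 ± 0.63 and IL2RG at 0.116 ± 0.0318.

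**Figure D2:**
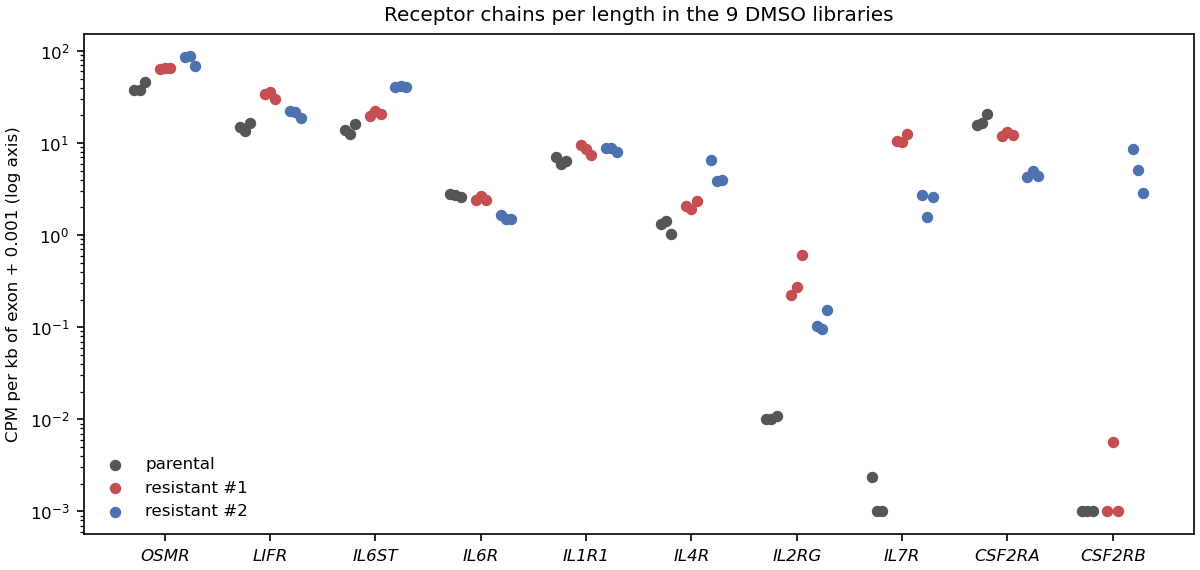
CPM per kb of exon + 0.001 (log axis) of the 10 chains in the 9 DMSO libraries (points; parental grey, resistant #1 red, resistant #2 blue). OSMR is highest in each population, and IL7R, CSF2RB and IL2RG span the widest range between populations.

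Most of the chains differed between the 2 resistant populations. In DMSO, 8 of the 9 genes other than CSF2RB passed, beside 53.4% of all genes tested. IL7R (2.26), IL2RG (1.50, adjusted p = 0.00505), CSF2RA (1.41, adjusted p = 2.23e-06), IL6R (0.65, adjusted p = 0.000207) and LIFR (0.63, adjusted p = 0.000881) were higher in resistant #1. IL4R (-1.17, adjusted p = 0.000479), IL6ST (-1.01, adjusted p = 7.97e-06) and OSMR (-0.34, adjusted p = 0.0249) were higher in resistant #2, and IL1R1 did not pass (-0.057, adjusted p = 0.7). The OSMR call was lost with the replicate number as a block (0.0545) and without any 1 of resistant #1 replicates 1, 2 and 3 or resistant #2 replicates 1 and 2 (0.0582 to 0.0978). Under treatment 6 of the 7 readable genes passed, beside 58.5% of all genes, each in the direction it had in DMSO. IL2RG was the exception (0.54 ± 0.24, adjusted p = 0.0664), and passed with DESeq2 (0.0415), without treated resistant #1 replicate 1 (0.0296) and without treated resistant #2 replicate 1 (0.0197).

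Against parental cells, the contrast by which the genes were chosen, no count of calls is given for them. Of all genes tested, 55.9% passed in resistant #1 and 61.9% in resistant #2 in DMSO. In treated libraries 67.2% and 72.5% of all genes passed.

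Under ATRA and decitabine 6 of the 7 readable genes passed in parental cells, beside 64.9% of all genes, LIFR being the exception. The DMSO libraries of these responses are those with which the genes were chosen. In resistant #1 2 passed, LIFR and CSF2RA, beside 28.3% of all genes. In resistant #2 2 passed, LIFR and IL6R, beside 18.6%. The replicate number was also used as a block within population. Most same-numbered libraries bear out that pairing in the resistant populations, but not in parental cells. In that fit 3 passed in resistant #1 and 4 in resistant #2, beside 44.3% and 33.5% of all genes. OSMR was added in both and IL2RG in resistant #2. The difference from the parental response passed for CSF2RA, IL2RG, IL4R, IL6R and LIFR, 5 of 7, in resistant #1, beside 43.9% of all genes. The same 5 genes passed in resistant #2, beside 49.5%, and both differences share the parental libraries. The median response of the 7 genes was 0.31 for parental cells, 0.039 for resistant #1 and -0.015 for resistant #2, beside 0.023, -0.0040 and -0.0028 over all genes.

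**Figure D3:**
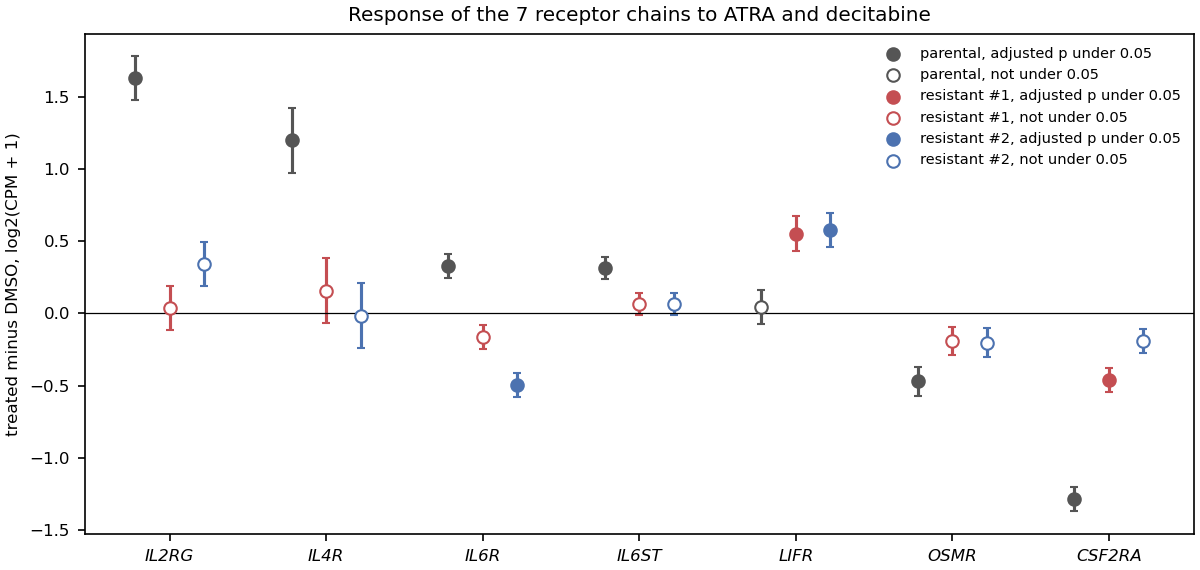
Treated minus DMSO difference on the log2(CPM + 1) scale with its SE for the 7 genes with restored values, in parental (grey), resistant #1 (red) and resistant #2 (blue) cells; filled points have an adjusted p under 0.05. Parental cells show the largest rises, of IL2RG and IL4R, and the largest fall, of CSF2RA, while LIFR rises in both resistant populations.

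The wider pathway was counted over 96 further genes in lists by role. In DMSO, 57 of 82 tested passed in resistant #1, 32 up and 25 down, where 29.3% of all genes rose and 26.6% fell. In resistant #2 55 passed, 41 up and 14 down, where 32.1% rose and 29.8% fell. The median difference was 0.0704 in resistant #1 and 0.376 in resistant #2, beside 0.0064 and 0.019 over all genes. In treated libraries 62 of 78 passed in resistant #1, 39 up and 23 down, where 34.8% of all genes rose and 32.4% fell. In treated resistant #2 libraries 61 passed, 40 up and 21 down, where 38% rose and 34.5% fell. Of the 82 genes in DMSO, CSF2, OSM and IL1RN passed the filter on low values through 1 population alone, and IL2RB, IL31RA and PRLR through the 2 resistant populations alone, so their calls follow in part from the filter. The counts of each list below include them and are to be read beside the shares of all genes called, 55.9% in resistant #1 and 61.9% in resistant #2.

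Of the ligands, 8 of 14 passed the test upward and 4 downward in resistant #1, and 7 of 14 passed the test upward and 2 downward in resistant #2. Of 26 further receptor chains, 13 rose and 8 fell in resistant #1, and 17 rose and 3 fell in resistant #2. IL13RA2, a decoy receptor for interleukin 13, had 475, 609 and 677 in parental DMSO libraries, 183, 240.2 and 425 in resistant #1 and 42483, 34996 and 36464 in resistant #2 (log2 difference of resistant #2 from parental 6.02 ± 0.26, adjusted p = 7.83e-09). IL31RA, which pairs with OSMR for interleukin 31, had 0, 2.87 and 3.25 for parental cells, 272, 245 and 289.7 for resistant #1 and 97.6, 45.8 and 55.4 for resistant #2, with every resistant library above every parental one. IL1RL1, the interleukin 33 receptor, rose in both as well (4.23 ± 0.46, adjusted p = 1.61e-05, and 2.57 ± 0.46, adjusted p = 0.000526). IL21R, a partner of IL2RG, fell in both (-2.71 ± 0.43, adjusted p = 0.000277, and -5.38 ± 0.43, adjusted p = 9.97e-07). CSF3R, the G-CSF receptor, had at most 3.25 in any DMSO library and 199, 330.2 and 455 in treated parental cells. It passed the filter through treated libraries alone, so its response is given with no test.

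Of 11 kinases and STATs, 7 rose and 1 fell in resistant #1, and 5 rose and 3 fell in resistant #2. STAT2, which acts in type I interferon signalling, went from 2925 ± 140.1 in parental DMSO cells to 9662 ± 679.6 in resistant #1 (adjusted p = 9.66e-07) and 14292 ± 2715 for resistant #2 (adjusted p = 7.71e-08). STAT4 fell in resistant #1 (-1.47 ± 0.12, adjusted p = 2.04e-06), and STAT5B fell in resistant #2 (-0.67 ± 0.12, adjusted p = 0.000639). JAK2, the kinase bound by CSF2RB, passed in neither (0.21, adjusted p = 0.213, and -0.15, adjusted p = 0.351).

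Of 17 feedback genes and brakes, 1 rose and 9 fell in resistant #1, and 5 rose and 5 fell in resistant #2. Between the resistant populations, 11 of the 17 were lower in resistant #1 and 1 higher, where 26% of all genes were lower and 27.4% higher. PTPN6, the phosphatase SHP-1 that acts on JAKs, had 1069, 1014 and 629 in parental DMSO libraries, 6.94, 6.37 and 4.83 in resistant #1 and 121, 69.3 and 86.9 in resistant #2 (-6.98 ± 0.28, adjusted p = 5.71e-09, and -3.27 ± 0.28, adjusted p = 1.61e-06). It rose under treatment in parental cells (0.93 ± 0.15, adjusted p = 3.94e-05), resistant #1 (1.73 ± 0.15, adjusted p = 3.32e-07) and resistant #2 (0.98 ± 0.15, adjusted p = 0.000227). PTPN2, a phosphatase of JAK1 and JAK3, fell in both resistant populations (-0.84 ± 0.13, adjusted p = 0.000216, and -0.78 ± 0.13, adjusted p = 0.0003). Of 14 genes of the interleukin 1 branch, 3 rose and 3 fell in resistant #1, beside 55.9% of all genes called. In resistant #2 7 rose and 1 fell, beside 61.9% of all genes called. IRAK3, a brake on that branch, fell in both (-2.99 ± 0.28, adjusted p = 4.51e-06, and -1.60 ± 0.28, adjusted p = 0.000401).

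**Figure D4:**
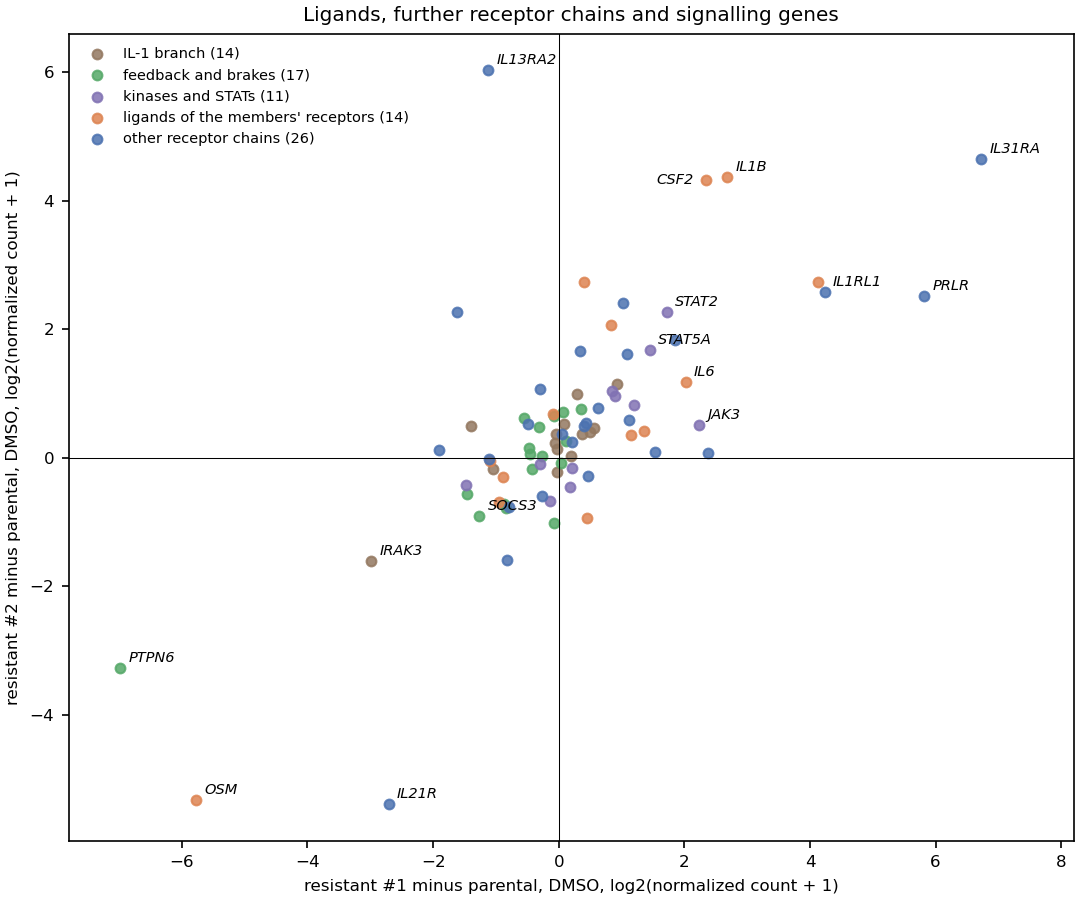
Log2 difference from parental DMSO cells of each tested pathway gene in resistant #1 (x) and resistant #2 (y), on the log2(normalised count + 1) scale, coloured by role. OSM, PTPN6 and IL21R lie low on both axes, IL31RA lies high on both, and IL13RA2 lies high on the y axis.

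Of the 2 nearest coding genes on each side of IL7R on chromosome 5, SPEF2 rose in resistant #1. CAPSL and PRLR had higher means in resistant #1 than in parental cells. SPEF2, 38.1 kb before it, went from 201 ± 7.01 in parental DMSO cells to 1223 ± 127 in resistant #1 (adjusted p = 3.69e-07) and 323 ± 70.3 for resistant #2 (adjusted p = 0.00662). CAPSL, 24.7 kb after it, had no read for parental cells, 43.7 ± 14 for resistant #1 and 2.51 ± 2.25 for resistant #2, which is 7 reads. CAPSL passed the filter through resistant #1 alone, so no test is given. PRLR, the prolactin receptor and itself a cytokine receptor chain, lies 622 kb before IL7R and had 1.97, 1.92 and 2.16 for parental cells, 187, 175 and 148 for resistant #1 and 15.4, 12.8 and 21.7 for resistant #2. UGT3A1, the second gene after IL7R, had 2 reads, in resistant #1. Of the neighbours of CSF2RB on chromosome 22, NCF4 had 12 reads in resistant #2 and none in the other DMSO groups, TEX33 had none, and PVALB had 2, 5 and 1 reads in parental, resistant #1 and resistant #2 cells. TST had 961 ± 255 for parental cells, 1026 ± 269 for resistant #1 (adjusted p = 0.745) and 1536 ± 367 for resistant #2 (adjusted p = 0.0292).

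Over the 9 DMSO libraries and 17038 genes compared, HAS2, a hyaluronan synthase (Pearson r = 0.997), TMBIM1 (0.997) and PIK3CG, a PI3 kinase subunit (0.996), were most like IL7R. HAS2 had 3.71 ± 0.754 for parental cells, 760.3 ± 78.6 for resistant #1 and 336 ± 51.5 for resistant #2. Most like CSF2RB were TMCO5B (0.999), EMX2OS (0.999) and CARD16 (0.999), the last with 10.1 ± 4.53, 15 ± 2.65 and 1139 ± 386 in parental, resistant #1 and resistant #2 cells. These correlations are a description: the 9 libraries fall into 3 populations, and any gene with the same spacing of populations scores high.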

How the data were processed

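RNA-seq of 18 NCI-H460 libraries, 3 in each of 6 groups, was analysed from 2 deposited tables. The submitters' processing notes name FastQC, MultiQC, STAR, featureCounts, DESeq2 and GRCh38 (hg38), with no role, order or version used here. Values of the DMSO table are the authors' deposited normalised counts (a signal scaled by DESeq2 size factors, as the tables' own names say), and 100% of them were whole reads after division by the step of their library, within 0.01 of a read. The deposited treated table holds the same kind of signal with its decimal points lost. Each value was read at the power of 10 that gave whole reads and the most probable level, and a gene was used at a posterior of at least 99%. On DMSO values with the points removed, 9 of 16671 genes came out wrong. For 19596 genes the treated values were also resolved without use of their DMSO levels. Replicate spreads in that run still came from the DMSO table. Of the genes resolved both ways, 0 differed. Reads are RNA fragments counted after amplification, so intervals cover counting error.

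Within a table, limma 3.58.1 (R 4.3.3) was fitted with a trend to log2(normalised count + 1) of genes with at least 10 in at least 3 of 9 libraries. Responses were fitted to log2(CPM + 1) of the whole reads of all 18 libraries with TMM scaling. A log2 fold change on these scales understates the change of low genes. Alternatives included edgeR 4.0.16 and DESeq2 1.42.0 on the whole reads. Tested on simulated data, the fit of resistant #1 against parental DMSO cells (21643 genes) found 19.4%, 61.2% and 89.4% of genes changed 1.5-fold, 2-fold and 4-fold, with 9.6% of calls false. That false share is above the adjusted p threshold of 0.05. Far fewer genes were changed in the simulation than the 55.9% called in the real comparison, so these shares need not hold there.

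The replicate numbers come from the labels, which do not say what a number shares. Deviations of same-numbered libraries correlated at 0.146, 0.438 and 0.501 between the DMSO libraries of resistant #1 and resistant #2. Between treated and DMSO libraries they correlated at 0.565, 0.334 and 0.761 in resistant #1 and at 0.654, 0.618 and 0.755 in resistant #2. Differently numbered libraries reached at most 0.247, 0.361 and -0.0936 in these comparisons, in that order. Not every same-numbered pair was thus the closest. The numbers were taken to pair the libraries of the resistant populations.

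The 10 genes and the lists were chosen with earlier results of these data known. Named pathway genes were up to 4 of each role list per comparison, those that passed with the largest difference and a mean of at least 10 in a compared group, together with 18 ligands, partners, kinases and effectors of the chains named wherever they have a value. Likeness was Pearson r, with the 3 highest genes of a group mean of at least 50 named, and neighbours were the 2 nearest coding genes on each side. Promoter windows are from RefSeq (GRCh38.p14), matched by symbol, and gene positions and lengths from GENCODE release 29.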

Additional observations from a re-analysis of the deposited data

Results flagged for a closer look

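For 5 of the 7 readable receptor chains the response to ATRA and decitabine differed between a resistant population and parental cells by an interaction term of the limma fit over 20253 genes. Values are resistant minus parental responses on the log2(CPM + 1) scale, with 3 libraries in each group. In resistant #1 the difference was 0.825 (adjusted p = 3.55e-05) for CSF2RA, 0.506 (adjusted p = 0.0235) for LIFR, -0.492 (adjusted p = 0.00291) for IL6R, -1.59 (adjusted p = 1.66e-05) for IL2RG and -1.04 (adjusted p = 0.0138) for IL4R. In resistant #2 it was 1.09 (adjusted p = 1.37e-06) for CSF2RA, 0.531 (adjusted p = 0.0161) for LIFR, -0.821 (adjusted p = 2.59e-05) for IL6R, -1.28 (adjusted p = 0.000111) for IL2RG and -1.21 (adjusted p = 0.00452) for IL4R. Both sets share the parental libraries, so they are not independent of each other.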

How the results depend on the processing

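Of 266 alternative values of the 11 counts, 258 stayed within 1.5 times the reported count. Among single chains with a test, 1342 of 1378 alternative values kept direction and side of the threshold, 10 lost the call, 26 gained it and 0 reversed. With IL7R, CSF2RB and IL1R1 included, chosen after seeing the data, the chains called in the response of resistant #1 numbered 4 at the most probable readings, 4 with CSF2RB in resistant #2 at its second reading and 4 at the second readings, against 2. Those in resistant #2 numbered 5, 4 and 5, against 2, and the resistant #2 difference from the parental response 8, 7 and 7, against 5. More genes tested is by construction part of this. IL7R and CSF2RB were chosen for their high DMSO values, so nothing is read from the counts that include them. With the replicate number as a block within population, also chosen after seeing the data, 4 were called in resistant #2; the cause was not tested. Leaving out 1 replicate at a time gave 2 to 3 chains for the response of resistant #1, 2 to 3 for resistant #2, 6 to 6 for parental cells, 4 to 6 and 5 to 6 for the differences of resistant #1 and resistant #2, 7 to 8 between resistant populations in DMSO and 6 to 7 treated, and 48 to 58 and 51 to 57 pathway genes in DMSO, 56 to 66 and 55 to 63 treated, for resistant #1 and resistant #2 against parental. With the replicate number as a block, the pathway counts were 53, 53, 62 and 63 in that order, the resistant populations differed in 7 chains in DMSO and 6 treated, the responses of parental cells, resistant #1 and resistant #2 numbered 6, 2 and 2, and the differences 5 and 5. The numbers do not pair parental with resistant libraries, treated resistant #1 with treated resistant #2, or treated with DMSO parental libraries. Of treated genes with a mean under 30, 47.2% could be read, against 98.0% at 1000 or more. A gene near 0 has its change compressed by the pseudocount. Groups of 3 replicates of 2 resistant populations say nothing of other resistant cells.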
